A study of Mus musculus with 23 samples.

Results

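Interferon-stimulated genes are the genes that cells switch on when type I interferon is sensed, and 42 of them were followed here through 4 stages of blood cell development in culture, each without and with induction of the leukaemia fusion protein RUNX1-ETO. The members were a list of well known antiviral genes of the mouse, chosen with earlier results of these data known. Each was found on the array by mapping the RefSeq accession of a probe to its gene symbol, and the probe with the highest mean level stood for the gene. In this way 40 of the 42 members were matched to a probe, and all 40 were among the 15202 genes tested, out of 20145 genes matched in all. No probe was matched to Mx1 or Mx2, so these 2 dynamin-like antiviral GTPases were not analysed here.

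RNA was hybridised to 23 single-colour arrays. The cells came from 1 mouse embryonic stem cell line, labelled as strain C57BL/6, in which doxycycline (Dox) drives human RUNX1-ETO from a TET-responsive promoter, with both copies of the cell's own Runx1 gene intact. Every group, induced or not, carried this transgene. The stages were sorted from blast culture by surface markers: haemogenic endothelium (HE, KIT+ Tie2+ CD41-), the next stage that has gained CD41 (HE2, KIT+ Tie2+ CD41+) and progenitors (Prog, KIT+ Tie2- CD41+). The HE groups and the HE2 groups had 3 arrays each and the progenitor groups 2 each. For the induced groups of these stages, Dox at 0.1 µg per ml was added on day 1 of blast culture and cells were sorted on day 2. For the last stage (myeloidProg, myeloid progenitors), KIT+ CD41+ progenitors were moved into expansion medium with cytokines, without or with Dox for 12 hours, with 3 arrays per group. Induced replicate 3 of this stage is titled a biological replicate, but another label calls it a technical replicate. The number of independent samples in that group is therefore not certain. No cells without the transgene were given Dox, so an effect of Dox itself and one of RUNX1-ETO cannot be told apart.

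Type I interferons are secreted proteins that bind a receptor of the subunits IFNAR1 and IFNAR2. The receptor activates Janus kinases, which phosphorylate STAT proteins. A complex that holds STAT2 and IRF9 binds the interferon-stimulated response element (ISRE) in the promoters of its target genes, whereas the gamma-activated site (GAS) is the element of the response to interferon gamma. The targets include sensors of viral nucleic acid, enzymes that degrade viral RNA or block translation, the ubiquitin-like protein ISG15 and GTPases that attack the membranes around intracellular parasites. Interferons are also known to act on blood stem cells, and inflammatory signals have been described during the formation of blood stem cells from endothelium. RUNX1-ETO joins the DNA-binding domain of RUNX1 to most of the corepressor protein ETO, and so can bind RUNX motifs.

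The promoters of some members are shown for the motifs of the interferon response. The members were listed as known interferon targets, so their share with the ISRE is not independent of that choice. RefSeq promoter windows of 300 bases, from 250 before to 50 after a gene's start on build GRCm38.p6, were given for 32 of the 42 members. The ISRE core was searched as GAAANNGAAA, the GAS core as TTCNNNGAA and the RUNX core as TGTGGT, each on both strands, and overlapping matches counted once per gene. The ISRE core stood in the windows of 17 of the 32 members (53.1%) and of 3.99% of the 27025 genes in the table. The GAS core stood in 11 of 32 (34.4%) against 9.55% of all genes. The RUNX core stood in 6 of 32 (18.8%), close to the 18.9% of all genes. A match describes the letters in a window and does not show that a factor was bound. The 150 bases before the start are printed 5′ to 3′ on the gene's strand, with every match of the 3 motifs in capitals, for 5 members with an ISRE core and for the 2 members that fell most often with Dox.
Isg15 (chr4:156200819-156200968, minus strand): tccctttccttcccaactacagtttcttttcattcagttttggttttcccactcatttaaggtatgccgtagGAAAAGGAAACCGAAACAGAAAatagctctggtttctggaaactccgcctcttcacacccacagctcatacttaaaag
Ifit1 (chr19:34640739-34640888, plus strand): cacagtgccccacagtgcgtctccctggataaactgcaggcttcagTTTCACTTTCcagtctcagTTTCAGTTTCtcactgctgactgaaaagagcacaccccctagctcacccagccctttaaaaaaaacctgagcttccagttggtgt
Oas1a (chr5:120907526-120907675, minus strand): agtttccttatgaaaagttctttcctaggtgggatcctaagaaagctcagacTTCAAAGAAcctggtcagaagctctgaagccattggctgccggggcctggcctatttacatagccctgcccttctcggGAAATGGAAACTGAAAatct
Rsad2 (chr12:26456453-26456602, minus strand): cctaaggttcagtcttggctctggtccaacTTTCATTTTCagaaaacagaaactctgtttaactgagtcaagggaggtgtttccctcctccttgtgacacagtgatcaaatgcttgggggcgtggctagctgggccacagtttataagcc
Irgm1 (chr11:48871421-48871570, minus strand): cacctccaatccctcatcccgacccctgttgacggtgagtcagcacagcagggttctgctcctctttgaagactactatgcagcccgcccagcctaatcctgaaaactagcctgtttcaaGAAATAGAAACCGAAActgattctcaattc
Ifitm1 (chr7:140967926-140968075, plus strand): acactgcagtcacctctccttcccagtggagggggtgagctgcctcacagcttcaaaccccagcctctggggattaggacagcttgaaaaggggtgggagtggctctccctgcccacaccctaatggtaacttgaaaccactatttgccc
Ifitm6 (chr7:141016893-141017042, minus strand): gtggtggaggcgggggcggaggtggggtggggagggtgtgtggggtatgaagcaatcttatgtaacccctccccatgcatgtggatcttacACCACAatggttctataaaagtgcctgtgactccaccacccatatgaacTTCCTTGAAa

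**Figure D1:**
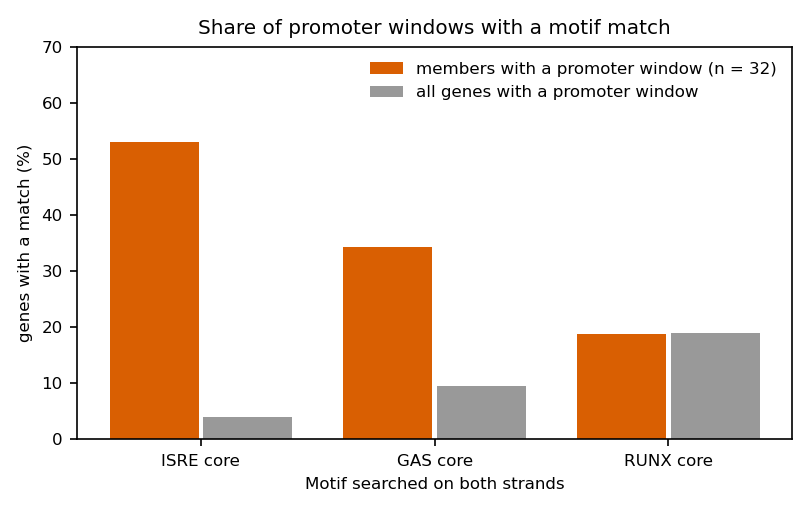
Share of genes (%) with at least 1 match of each motif in a RefSeq promoter window, for the 32 members with a window (orange) and for all genes with a window (grey). The ISRE core stood in 53.1% of the members and 3.99% of all genes, whereas the RUNX core stood in 18.8% and 18.9%.

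Between 48.8% and 78.4% of the spots on an array were well above background. The arrays lay on 3 slides: HE and HE2 on slides 1 and 2, uninduced progenitors on slides 1 and 2, induced progenitors on slides 1 and 3, and all myeloid progenitors on slide 3. An additional array of uninduced progenitors, labelled a technical replicate, lay on slide 3. It was normalised with the others and kept out of the main tests, and its values are given where slide and stage coincide. Where it was added to the model as an alternative, it counted as a replicate of its own. Which array it repeats was not established. The probe of Runx1t1, the mouse counterpart of the ETO part of the fusion, was higher with Dox at every stage, by 1.24 ± 0.33 on the log2 scale in HE (adjusted P = 0.0155, not past the threshold), by 2.08 in HE2, by 3.96 in Prog and by 2.06 in myeloidProg, all past it. Whether this probe also reads the human transgene is not given in the sources used here. Of the sorting markers, Itga2b (CD41) was lower with Dox in HE, by a log2 difference of -3.21. In HE2 its difference was -2.46, not past the threshold. Tek (Tie2) was at 8.71 and 8.63 in progenitors without Dox and at 10.91 and 11.29 with Dox. In myeloid progenitors Tek was at 9.01, 9.63 and 8.96 without Dox and at 12.58, 11.97 and 12.27 with Dox. In a linear model of 22 arrays, genes with P no higher than 0.001 that moved 2-fold or more were called changed, which is the study's own threshold, and the errors given with log2 changes are standard errors of that model. In bulk RNA of this kind, fewer cells that express a gene and less RNA per cell cannot be told apart.

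Without Dox, the median level of the members was higher at each later stage. The median log2 intensity of the 40 members was 7.95 ± 0.28 in HE (SD, n = 3), 8.31 ± 0.19 in HE2 (n = 3), 9.25 ± 0.11 in progenitors (n = 2) and 11.79 ± 0.33 in myeloid progenitors (n = 3). Of the 40 members, 30 rose in at least 1 of the 3 steps, against 9.55% of all genes. In both later steps 13 rose, against 0.625%, and in all 3 steps 6 rose (Oas1a, Oas2, Samd9l, Rtp4, Usp18 and Igtp), against 0.217%. Consecutive steps share the arrays of the stage between them, so they are not independent of each other.

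**Figure D2:**
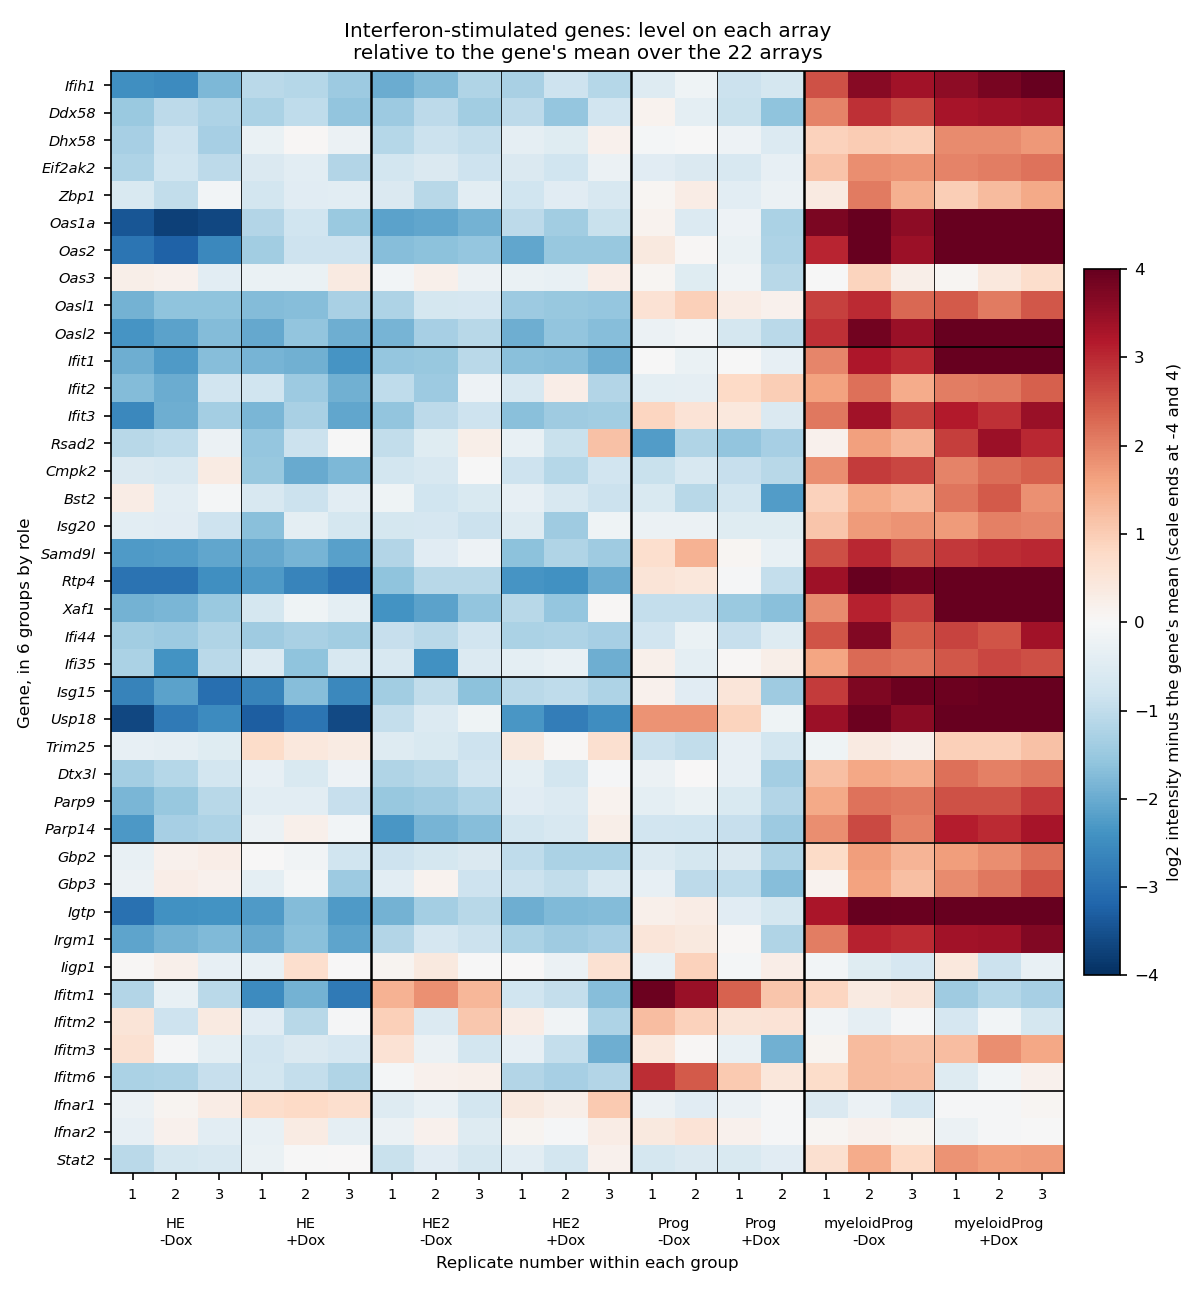
Level of the 40 members (rows, in 6 groups by role) on each of the 22 arrays (columns, by group and replicate), as log2 intensity minus the gene's mean over the arrays, with colours ending at -4 and 4. Most rows are highest in myeloid progenitors, whereas Ifitm1 and Ifitm6 are highest in uninduced progenitors.

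From HE to HE2 without Dox, 8 of the 40 members rose, against 2.39% of all genes tested, and none fell, against 2.67% of all genes. Over the members the median log2 change was 0.34, and over all genes 0.03. Usp18, the protease that removes ISG15 from proteins and damps the receptor, was at 5.91, 6.71 and 7.03 on the 3 HE arrays and at 8.57, 8.99 and 9.37 on the 3 HE2 arrays, a rise of 2.43 ± 0.30 on the log2 scale (adjusted P = 3.42e-05). No HE2 array reached down to an HE array. Ifitm1, a membrane protein that hinders virus entry, was at 10.28, 11.15 and 10.38 in HE and 12.83, 13.29 and 12.78 in HE2 (2.36 ± 0.33, adjusted P = 0.000147). Samd9l, a restriction factor that is also known as a tumour suppressor of myeloid cells, was at 6.91, 6.95 and 7.09 in HE and 8.01, 8.73 and 8.98 in HE2 (1.59 ± 0.23, adjusted P = 0.000219). In each of these genes the groups did not overlap, and at this step 13.4% of all genes lay wholly higher in HE2.

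Of the 10 sensors and OAS enzymes 2 rose at this step, Oas1a and Oas2, which encode 2'-5'-oligoadenylate synthases, makers of the signal that activates RNase L. Oas1a was at 6.17, 5.86 and 5.96 in HE and 7.45, 7.54 and 7.73 in HE2 (1.58 ± 0.26, adjusted P = 0.000746). Oas2 was at 5.16, 4.85 and 5.48 in HE, where only 1 of 3 arrays was well above background, and 6.37, 6.43 and 6.54 in HE2 (1.28 ± 0.27, adjusted P = 0.00449). Rtp4, a negative regulator of the interferon response, was at 5.84, 5.83 and 6.35 in HE and 7.19, 7.68 and 7.68 in HE2 (1.51 ± 0.27, adjusted P = 0.00143). Ifitm6 and Igtp rose by 1.24 and 1.15, and in HE Ifitm6 was well above background on 1 of 3 arrays. The 2 probes of Oas1a differed in size at this step, with log2 changes of 1.58 and 0.29.

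From HE2 to progenitors without Dox, 15 of the 40 members rose, against 1.78% of all genes, and none fell, against 3.62%. The median log2 change was 1.00 over the members and -0.02 over all genes. Among the sensors and OAS enzymes 6 of 10 rose. Ifitm6 was at 6.01, 6.25 and 6.27 in HE2 and at 9.01 and 8.53 in progenitors, a rise of 2.59 ± 0.24 (adjusted P = 1.71e-06). Usp18 was at 8.57, 8.99 and 9.37 in HE2 and at 11.32 on both progenitor arrays (2.34 ± 0.33, adjusted P = 0.000105). Ifitm1 was at 12.83, 13.29 and 12.78 in HE2 and at 15.37 and 14.92 in progenitors (2.18 ± 0.37, adjusted P = 0.00065). These 3 genes thus rose at this step again, with no overlap between the groups, as 16.9% of all genes did.

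Ifit3, of the same family of antiviral proteins as Ifit1, was at 6.38, 6.92 and 7.15 in HE2 and at 8.84 and 8.52 in progenitors (1.86 ± 0.39, adjusted P = 0.0039). Oas2 was at 6.37, 6.43 and 6.54 in HE2 and at 8.47 and 8.12 in progenitors (1.85 ± 0.30, adjusted P = 0.00046). Oas1a was at 7.45, 7.54 and 7.73 in HE2 and at 9.75 and 9.07 in progenitors (1.84 ± 0.29, adjusted P = 0.000372). The other 9 that rose, by between 1.18 (Ddx58) and 1.78 (Rtp4), were Rtp4, Igtp, Oasl1, Samd9l, Irgm1, Ifih1, Oasl2, Ifit1 and Ddx58. They include Ifih1 and Ddx58, which encode the RNA helicases MDA5 and RIG-I that sense viral RNA in the cytoplasm.

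From progenitors to myeloid progenitors without Dox, 28 of the 40 members rose, against 7% of all genes, and 2 fell, against 6.93%. The median log2 change was 2.07 over the members and -0.12 over all genes. Among all genes 1064 rose and 1054 fell at this step, and after scaling each array to its 75th percentile 802 rose and 1371 fell, with medians of 1.89 over the members and -0.25 over all genes. All 6 members of the group of ISG15, Usp18, Trim25, Dtx3l, Parp9 and Parp14 rose, as did 11 of 12 antiviral effectors and 7 of 10 sensors and OAS enzymes. Oas1a was at 9.75 and 9.07 in progenitors and at 13.38, 13.74 and 13.20 in myeloid progenitors, a rise of 4.03 ± 0.29 on the log2 scale, or 16.3-fold (adjusted P = 2.88e-08). Isg15, whose product is attached to other proteins, was at 12.29 and 11.68 in progenitors and at 14.93, 15.85 and 16.06 in myeloid progenitors (3.63 ± 0.46, 12.4-fold, adjusted P = 1.35e-05). Oasl2 was at 8.09 and 8.17 in progenitors and at 11.25, 12.16 and 11.78 in myeloid progenitors (3.60 ± 0.27, adjusted P = 3.65e-08). In all 3 genes the lowest myeloid array lay above the highest progenitor array, as it did in 28.9% of all genes.

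Xaf1, an interferon-induced gene that favours cell death, was at 8.46 and 8.45 in progenitors and at 11.30, 12.49 and 12.16 in myeloid progenitors (3.53 ± 0.38, adjusted P = 2.23e-06). Igtp, a GTPase that acts on the vacuoles of intracellular parasites, was at 9.40 and 9.48 against 12.43, 13.32 and 13.13 (3.52 ± 0.27, adjusted P = 4.75e-08). Ifih1 was at 7.89 and 8.22 against 10.93, 12.03 and 11.76 (3.52 ± 0.31, adjusted P = 2.07e-07). The remaining 22 that rose did so by between 1.04 (Trim25) and 3.41 (Ifi44). Ifitm1 and Ifitm6 went the other way: Ifitm1 fell by 3.11 ± 0.37 (adjusted P = 6.33e-06), to 12.33, 11.82 and 11.95, and Ifitm6 fell by 1.63 ± 0.24 (adjusted P = 6.46e-05), to 6.81, 7.32 and 7.30.

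This step coincides with the move from blast culture into expansion medium with cytokines, so stage and medium cannot be told apart. It also coincides with the change of slide, since the uninduced progenitors of the test lay on slides 1 and 2 and the myeloid progenitors on slide 3. The additional progenitor array on slide 3 had a median member level of 9.07, beside 9.33 and 9.17 on slides 1 and 2, whereas the uninduced myeloid arrays on slide 3 lay between 11.47 and 12.14. On it Isg15 was at 11.24, Oas1a at 9.12, Oasl2 at 8.26, Ifitm1 at 14.59 and Ifitm6 at 8.30. With this array added as a replicate of its own, though labelled a technical replicate, and slide as a term of the model, 30 members rose and 2 fell. With slide as a term and without this array, 22 members rose and none fell.

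**Figure D3:**
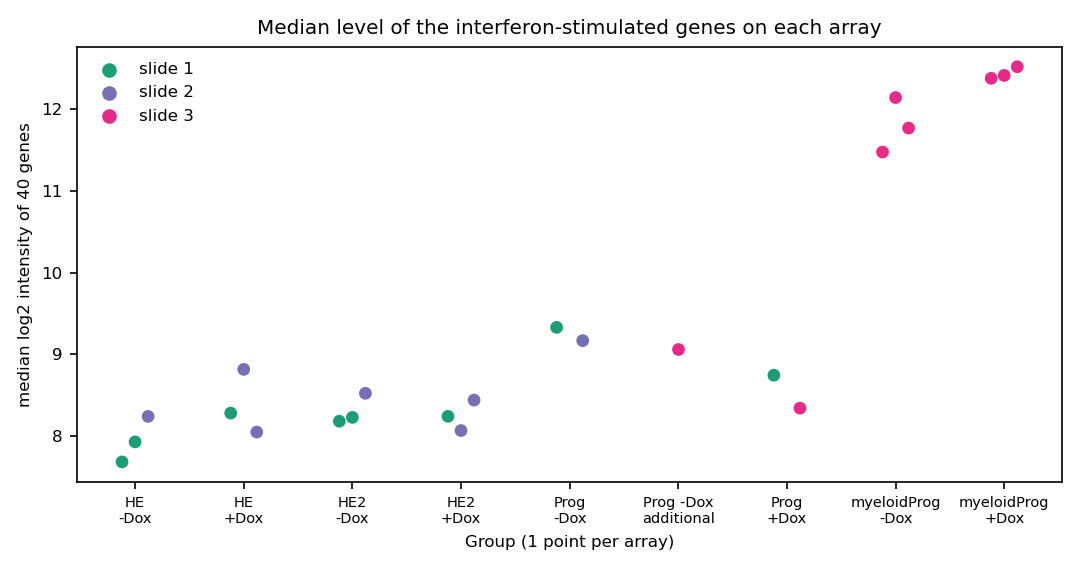
Median log2 intensity of the 40 members on each of the 23 arrays, with 1 point per array and colour for the slide. The additional progenitor array on slide 3 (9.07) lies beside the other uninduced progenitors and below the myeloid progenitors of the same slide, which run from 11.47 to 12.52.

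Markers of other cells moved with these steps. From HE to HE2, 3 of 4 megakaryocyte, 2 of 6 macrophage, 2 of 5 erythroid, 1 of 4 neutrophil and 1 of 2 mast cell markers rose, and 2 of 7 endothelial markers fell. From HE2 to progenitors, 2 of 4 neutrophil, 2 of 5 erythroid and 2 of 4 megakaryocyte markers rose, 4 of 7 endothelial and 1 of 5 mesenchymal markers fell, and of the 6 macrophage markers 1 rose and 1 fell. Of the 6 macrophage markers tested, Adgre1, C1qb and Csf1r rose from progenitors to myeloid progenitors, and the log2 of their summed intensity was 12.74 to 13.09 in uninduced progenitors and 13.996 to 14.75 in uninduced myeloid progenitors. All 5 erythroid markers rose as well, and 3 of the 4 megakaryocyte markers, whereas 2 of 4 neutrophil and 3 of 5 mesenchymal markers fell. Of the 7 endothelial markers 1 rose and 1 fell at this step. On each of these myeloid arrays 5 or 6 of the 6 macrophage markers were well above background. The part of these cells in the rise of the members was not tested.

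The response to Dox was mixed in direction and differed between members. At 1 stage or more 16 of the 40 members were called, against 14.5% of all genes. Of these 11 were called upwards, against 10.1%, and 5 downwards, against 4.55%, and no member was called in both directions. The remaining 24 were called at no stage. Ifitm1 was the only member called at all 4 stages, and it fell at each. The levels without Dox used here are the same arrays that enter the steps above, so a gene that rose to a stage and fell with Dox there was compared with the same arrays in both.

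**Figure D4:**
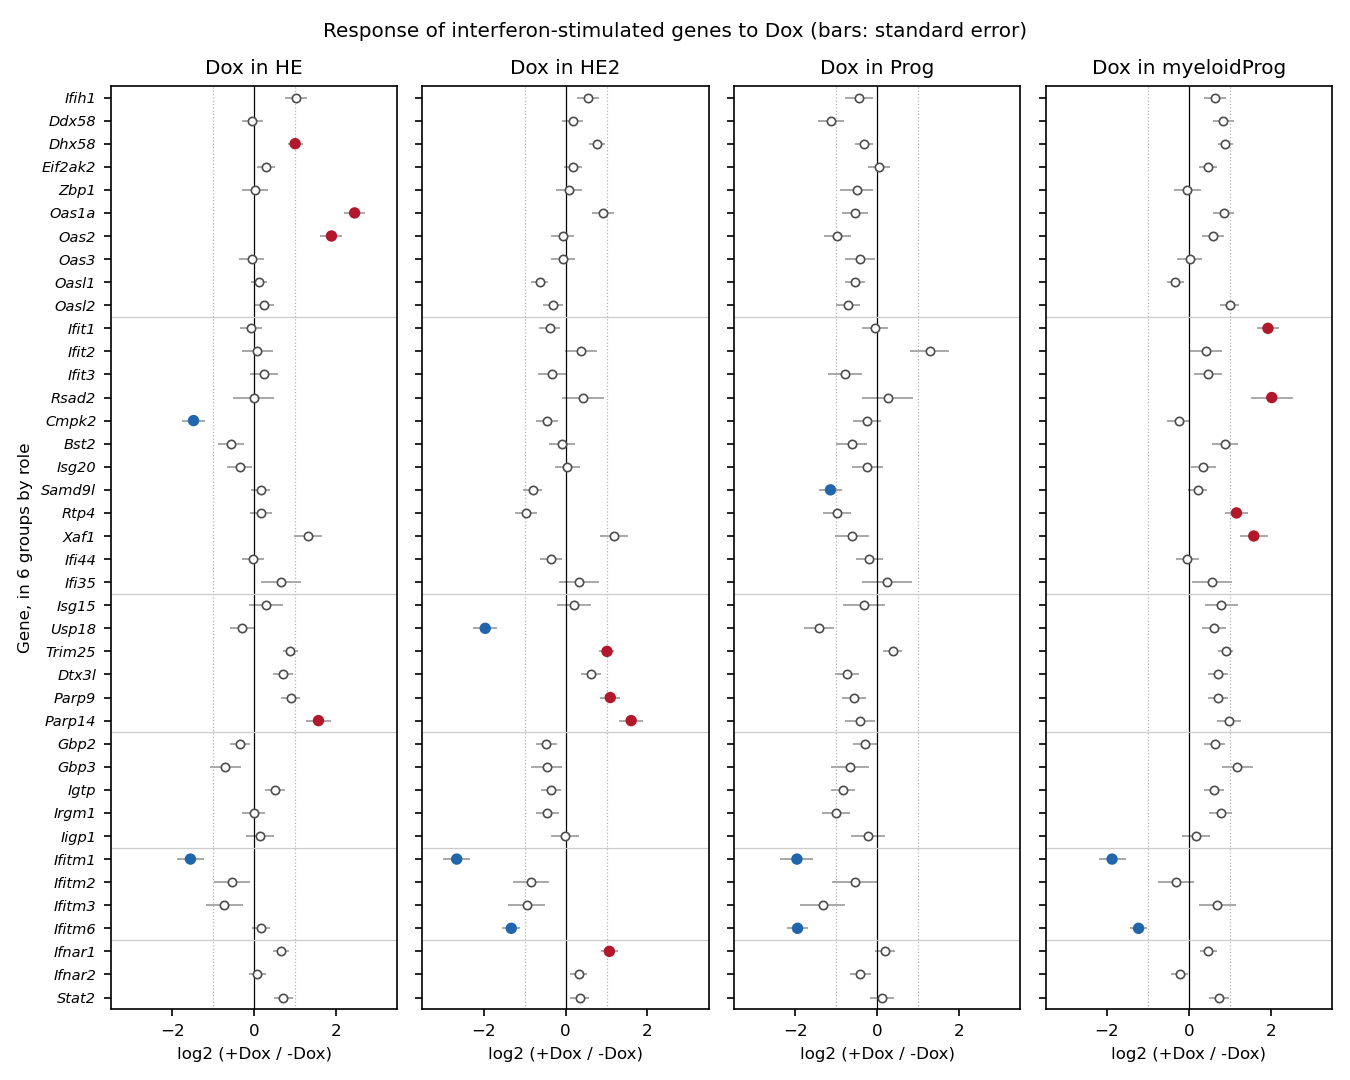
Change with Dox of each member at each stage, as log2 of the level with Dox over that without, with the standard error of the model as bars. Filled points passed the threshold (red, higher with Dox, and blue, lower), and dotted lines mark a 2-fold change. Ifitm1 is blue in all 4 panels, and no point is red in Prog.

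In HE, 4 of the 40 members rose with Dox, against 4.7% of all genes, and 2 fell, against 2.39%. The median log2 change was 0.16 over the members and -0.01 over all genes. Among the 10 sensors and OAS enzymes 3 rose, and of the 6 members of the ISG15 and ADP-ribose group 1 rose. Oas1a was at 6.17, 5.86 and 5.96 without Dox and at 8.43, 8.81 and 8.12 with Dox, a rise of 2.46 ± 0.26 or 5.5-fold (adjusted P = 3.8e-06). Its other probe gave a log2 change of 0.46, so the size of this change depends on the probe. Oas2 was at 5.16, 4.85 and 5.48 without Dox and at 6.69, 7.24 and 7.24 with Dox (1.89 ± 0.27, adjusted P = 7.72e-05).

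Parp14, which attaches ADP-ribose to proteins and takes part in interferon signalling, was at 7.10, 8.04 and 8.16 without Dox and at 9.16, 9.60 and 9.27 with Dox (1.58 ± 0.30, adjusted P = 0.00119). Dhx58 encodes LGP2, a regulator of RIG-I and MDA5, and was at 6.81, 7.30 and 6.79 without Dox and at 7.85, 8.19 and 7.88 with Dox (1.01 ± 0.19, adjusted P = 0.000912). In all 4 genes every array with Dox was above every array without it, as in 14.2% of all genes. Ifitm1 was at 10.28, 11.15 and 10.38 without Dox and at 8.94, 9.57 and 8.64 with Dox, a change of -1.55 ± 0.33 (adjusted P = 0.0029). Cmpk2, a mitochondrial nucleotide kinase encoded next to Rsad2, was at 7.86, 7.82 and 8.77 without Dox and at 6.94, 6.42 and 6.67 with Dox, a change of -1.48 ± 0.28 (adjusted P = 0.00107), while Rsad2 itself was at 8.55 to 9.42 without Dox and 8.13 to 9.64 with it. In Ifitm1 and Cmpk2 no array with Dox reached the lowest array without it, as in 10.9% of all genes.

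The calls of Dhx58 and Ifitm1 in HE rested on single arrays. Dhx58 fell under the 2-fold limit when HE_nodox replicate 1, HE_nodox replicate 3 or HE_plusdox replicate 2 was left out (0.93, 0.92 and 0.90). Ifitm1 missed the P threshold without HE_nodox replicate 2, HE_plusdox replicate 1 or HE_plusdox replicate 3 (-1.28, -1.50 and -1.35).

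In HE2, 4 of the 40 members rose with Dox, against 5.17% of all genes, and 3 fell, against 2.05%. Over the members the median log2 change was -0.04, beside -0.03 over all genes. Ifitm1 was at 12.83, 13.29 and 12.78 without Dox and at 10.67, 10.50 and 9.75 with Dox, a change of -2.66 ± 0.33 or 6.33-fold (adjusted P = 2.57e-05). Usp18 was at 8.57, 8.99 and 9.37 without Dox and at 7.21, 6.77 and 7.05 with Dox, a change of -1.97 ± 0.30 (adjusted P = 0.000168). Ifitm6 was at 6.01, 6.25 and 6.27 without Dox and was not well above background on any of the 3 arrays with Dox (4.90, 4.73 and 4.90), so its level there is only an upper limit. Taking on each of these arrays the higher of its own level and the lowest signal well above background, it was at least 2.51-fold lower. This holds under this background correction, and the log2 change was -0.77 with an offset of 50. The adjusted P of 0.000318 is that of the change in the model, not of this bound. For comparison, the means in uninduced HE were 10.61 for Ifitm1, 4.93 for Ifitm6 and 6.55 for Usp18.

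The members that rose in HE2 were 3 enzymes of the ISG15 and ADP-ribose group and a receptor subunit. Parp14 was at 7.05, 7.53 and 7.67 without Dox and at 8.66, 8.76 and 9.63 with Dox (1.60 ± 0.30, adjusted P = 0.00108). Parp9, which acts together with the ubiquitin ligase Dtx3l, was at 8.73, 8.83 and 9.01 without Dox and at 9.78, 9.69 and 10.38 with Dox (1.09 ± 0.24, adjusted P = 0.00388). Ifnar1 was at 11.98, 12.20 and 11.77 without Dox and at 12.89, 12.73 and 13.54 with Dox (1.07 ± 0.20, adjusted P = 0.00107). Trim25, the ubiquitin ligase that activates RIG-I, rose by 1.01 ± 0.18. HE2_plusdox replicate 3 was the highest array in each of these 4 genes, and without it the change was 0.88 in Parp9, 0.83 in Ifnar1 and 0.87 in Trim25, all under the 2-fold limit. Without HE2_nodox replicate 3, Ifnar1 (0.96) and Trim25 (0.93) were under it too, and Parp9 missed the P threshold without HE2_nodox replicate 1 (1.03) or replicate 2 (1.08).

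In progenitors, no member rose with Dox, against 3.03% of all genes, and 3 fell, against 0.704%. The median log2 change was -0.52 over the members and -0.04 over all genes, and 33 of the 40 members had a negative change. The median over the members was -0.25 with slide as a term of the model and -0.30 without Prog_plusdox replicate 2. Ifitm1 was at 15.37 and 14.92 without Dox and at 13.81 and 12.56 with Dox, a change of -1.96 ± 0.40 (adjusted P = 0.00606). Ifitm6 was at 9.01 and 8.53 without Dox and at 7.12 and 6.52 with Dox, a change of -1.95 ± 0.26 (adjusted P = 0.000166). Samd9l was at 9.87 and 10.56 without Dox and at 9.27 and 8.88 with Dox, a change of -1.14 ± 0.28 (adjusted P = 0.0216). In all 3 genes both arrays with Dox were below both arrays without it, which with 2 arrays a group held for 26.3% of all genes.

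Induced progenitors had 1 array on slide 1 and 1 on slide 3, and replicate 2, the array on slide 3, was the lower in each of these 3 genes. On slide 1 alone, with 1 array per group, the differences were -1.56 for Ifitm1, -1.89 for Ifitm6 and -0.61 for Samd9l. With slide as a term of the model only Ifitm6 was still called, and Ifitm1 was at -1.48 and Samd9l at -0.78. The additional uninduced array on slide 3 had Ifitm1 at 14.59, Ifitm6 at 8.30 and Samd9l at 10.18. With it and slide in the model all 3 were called, but that model counts a technical replicate as a replicate of its own. Without Prog_plusdox replicate 2, the calls of Ifitm1 (-1.34) and Samd9l (-0.95) were lost. Ifitm1 also missed the threshold without Prog_nodox replicate 1 (-1.74), and Samd9l without Prog_nodox replicate 2 (-0.80) or Prog_plusdox replicate 1 (-1.33).

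In myeloid progenitors, 4 of the 40 members rose with Dox, against 5.13% of all genes, and 2 fell, against 1.18%. The median log2 change was 0.62 over the members and -0.02 over all genes, and 32 of the 40 members had a positive change. Without myeloidProg_nodox replicate 1 the median over the members was 0.37. The 4 that rose were antiviral effectors. Rsad2 encodes viperin, an enzyme that makes a chain terminator of viral RNA synthesis, and was at 9.84, 11.30 and 11.03 without Dox and at 12.45, 13.10 and 12.70 with Dox (2.03 ± 0.51, adjusted P = 0.011). Ifit1, which binds viral RNA that lacks the host's cap, was at 9.16, 10.44 and 10.20 without Dox and at 11.80, 11.77 and 12.04 with Dox (1.93 ± 0.26, adjusted P = 4.64e-05). Xaf1 was at 11.30, 12.49 and 12.16 without Dox and at 13.41, 13.63 and 13.67 with Dox (1.59 ± 0.34, adjusted P = 0.00342). Rtp4 was at 12.19, 13.23 and 12.64 without Dox and at 13.90, 13.70 and 13.95 with Dox (1.16 ± 0.27, adjusted P = 0.00692).

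Replicate 1 was the lowest of the 3 uninduced arrays in each of these 4 genes, and without it the change was 1.59 in Rsad2, 0.91 in Rtp4 and 1.24 in Xaf1, none of them called. The call of Rsad2 was also lost without myeloidProg_nodox replicate 3 (2.18) and without each array with Dox (1.85 to 2.18). The call of Rtp4 was lost without myeloidProg_nodox replicate 3 (1.14), myeloidProg_plusdox replicate 1 (1.14) or replicate 3 (1.11), and that of Xaf1 without myeloidProg_plusdox replicate 3 (1.54). The calls of Rsad2, Rtp4 and Xaf1 were thus all lost without induced replicate 3, the array that another label calls a technical replicate. Ifit1 was called without any 1 of the 6 arrays. Ifitm1 was at 12.33, 11.82 and 11.95 without Dox and at 10.03, 10.30 and 10.14 with Dox, a change of -1.88 ± 0.33 (adjusted P = 0.00064). Ifitm6 was at 6.81, 7.32 and 7.30 without Dox and at 5.55, 5.95 and 6.24 with Dox, a change of -1.23 ± 0.22 (adjusted P = 0.000625). In these 6 genes the groups did not overlap, and all arrays lay on slide 3. Among all genes 23.9% lay wholly higher with Dox and 22.7% wholly lower.

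**Figure D5:**
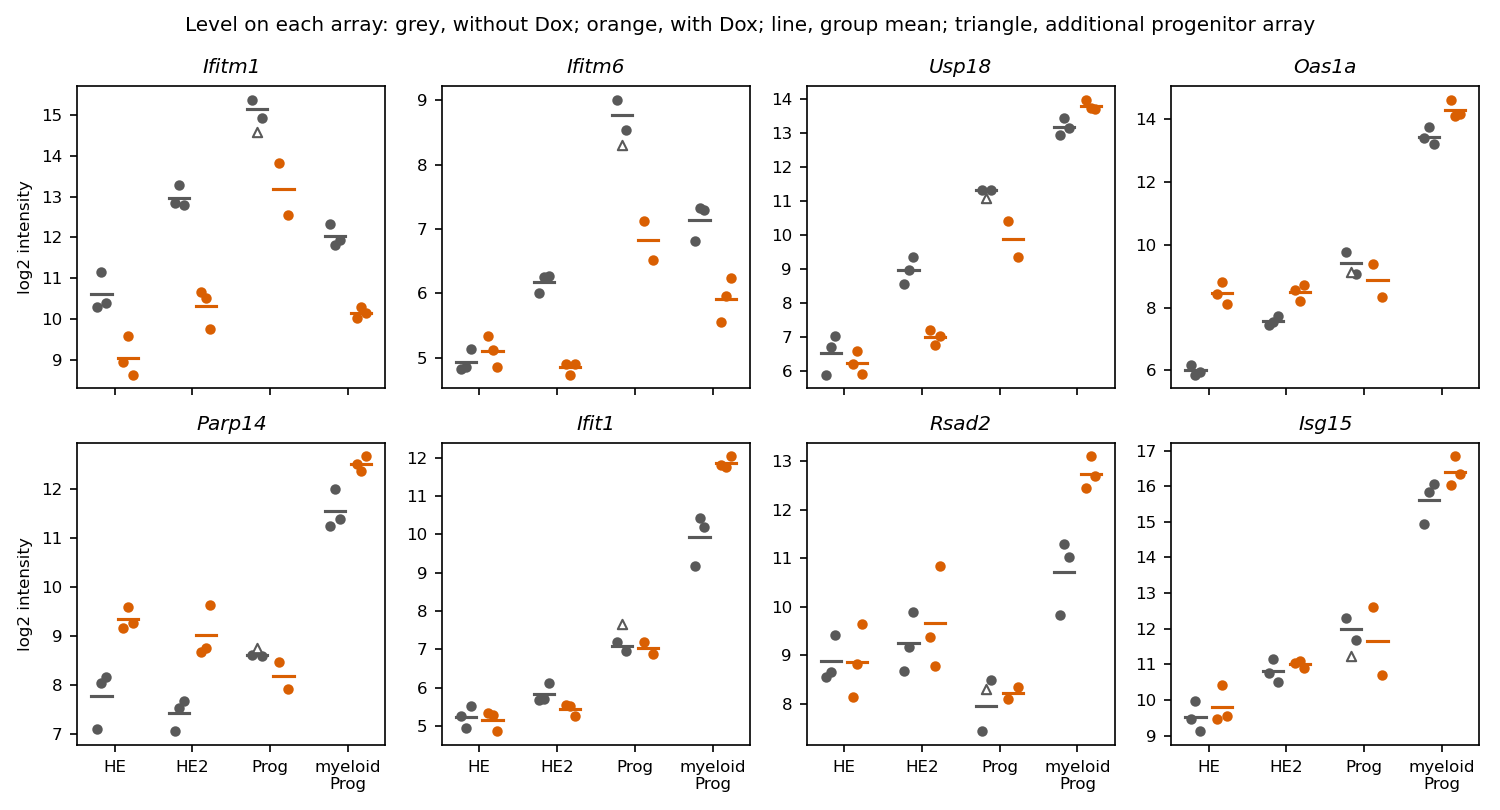
Log2 intensity of 8 members on each array (points) with the group mean (line), without Dox in grey and with Dox in orange, and the additional uninduced progenitor array as a triangle. Ifitm1 lies lower with Dox at every stage, Oas1a lies higher with Dox in HE, and Ifit1 and Rsad2 lie higher with Dox in myeloid progenitors.

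Among the Ifitm genes, Ifitm1 and Ifitm6 differed in their calls from Ifitm2 and Ifitm3. Ifitm1, Ifitm2, Ifitm3 and Ifitm6 are neighbours on chromosome 7. All 4 were lower with Dox in HE2 and in Prog. In Prog all 4 lay wholly below the arrays without Dox, as did 26.3% of all genes. In HE 3 of the 4 were lower, and in myeloidProg Ifitm3 was higher. The difference between these genes in their response was not tested. Of the 4, Ifitm1 fell with Dox at 4 stages and Ifitm6 at HE2, Prog and myeloidProg, whereas Ifitm2 and Ifitm3 were called at no stage, with changes between -0.85 and -0.32 for Ifitm2 and between -1.33 and 0.70 for Ifitm3. In HE, Ifitm6 was near background both without Dox (4.81, 4.85 and 5.13) and with it (5.34, 5.11 and 4.86). With an offset of 50 in place of 16 in the background correction, the fall of Ifitm6 was -0.77 in HE2 and -0.89 in myeloidProg, both under the 2-fold limit.

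The difference between stages in the response to Dox was tested directly. Between HE and HE2, the response of 4 of the 40 members differed, against 1.34% of all genes. Oas2 rose in HE and changed by -0.08 in HE2, a difference of -1.97 ± 0.38 (adjusted P = 0.0196). Oas1a differed by -1.54 ± 0.37 (adjusted P = 0.0571) and Usp18 by -1.66 ± 0.42 (adjusted P = 0.0697), so these 3 had a lower response in HE2 than in HE. The other was Ifitm6 (-1.50 ± 0.31, adjusted P = 0.0243), which in HE was well above background on 1 of 3 arrays without Dox and 1 of 3 with it, so that a fall in HE could not be measured and its responses cannot be compared. The median over all 40 members was -0.20. Over 26 other settings and left-out arrays Oas2 kept its call in all, Oas1a in 13 and Usp18 in 14.

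Between HE2 and progenitors, 2 of the 40 members differed, against 0.645% of all genes. Parp14 rose in HE2 and changed by -0.41 in progenitors, a difference of -2.01 ± 0.47 (adjusted P = 0.114). Parp9 changed by -0.57 in progenitors, a difference of -1.66 ± 0.38 (adjusted P = 0.108). Both were lost with slide as a term, at -1.43 and -1.22. They were also lost without Prog_plusdox replicate 2, at -1.75 and -1.38.

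Between progenitors and myeloid progenitors, 8 of the 40 members differed, against 1.5% of all genes, and all 8 had a higher response in myeloid progenitors. Progenitors had Dox from day 1 of blast culture to the sort on day 2, and myeloid progenitors for 12 hours in expansion medium. Stage, length of Dox and medium thus cannot be told apart here, nor in the comparison of HE with myeloid progenitors below. The median difference was 1.17 over the members and 0.06 over all genes, and 39 of the 40 members had a positive difference. Xaf1 changed by -0.61 in progenitors and by 1.59 in myeloid progenitors (difference 2.20 ± 0.54, adjusted P = 0.0518). Rtp4 changed by -0.99 and 1.16 (difference 2.15 ± 0.43, adjusted P = 0.0186). Usp18 changed by -1.42 and 0.62 (2.04 ± 0.47, adjusted P = 0.0387) and Ifit1 by -0.05 and 1.93 (1.98 ± 0.41, adjusted P = 0.0215). Ddx58, Irgm1, Oasl2 and Dhx58 differed by between 1.22 and 1.97.

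The calls of this difference were not kept under every treatment of slide. With slide as a term of the model none of the 8 was called and the median over the members was 0.74, and without Prog_plusdox replicate 2 none was called and the median was 0.75. With the additional progenitor array and slide in the model 8 members were called, with Dhx58 no longer among them. That model counts a technical replicate as a replicate of its own. Between HE, on slides 1 and 2, and myeloid progenitors, on slide 3, 3 of the 40 members differed, against 4.72% of all genes. Ifit1 had the higher response in myeloid progenitors (2.01 ± 0.37, adjusted P = 0.00209), and Oas1a had the lower one (-1.61 ± 0.37, adjusted P = 0.0113). Ifitm6 (-1.40 ± 0.31, adjusted P = 0.00715) was near background in HE, and its responses cannot be compared.

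In none of the 11 comparisons 8 members were called, against 73.4% of all genes: Zbp1, Oas3, Ifi35, Gbp3, Iigp1, Ifitm2, Ifitm3 and Ifnar2. Of these, Gbp3 was at 8.73 and 7.99 in uninduced progenitors and at 9.18, 10.67 and 10.24 in uninduced myeloid progenitors, and Ifi35 at 10.63 and 10.04 against 12.03, 12.72 and 12.62. In both genes the change missed the P threshold. The receptor subunits were expressed at all stages, Ifnar1 between 11.77 and 13.54 and Ifnar2 between 11.05 and 12.12 on the 22 arrays. Stat2 rose from progenitors to myeloid progenitors by 1.62 ± 0.26 (adjusted P = 0.000147), and was between 10.43 and 11.69 on the arrays of the earlier stages and between 12.17 and 13.32 on the myeloid arrays. Of the members with an ISRE core in their window 13 of 17 rose from progenitors to myeloid progenitors and 2 of 17 rose with Dox in myeloid progenitors. Of those with a window but no ISRE core the counts were 10 of 15 and 1 of 15, and the difference was not tested. Over all genes tested, 7% rose at this step and 5.13% rose with Dox in myeloid progenitors.

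Of 59 other genes of the pathway that were tested, 24 rose and 4 fell from progenitors to myeloid progenitors. Of all genes 7% rose and 6.93% fell at this step. Of the transcription factors, Irf7, which drives interferon genes, rose by 2.76 ± 0.43 (adjusted P = 9.71e-05) and Irf9 by 2.54 ± 0.25 (adjusted P = 8.15e-07). The log2 difference of Irf1 was 0.29 ± 0.25 (adjusted P = 0.402). The largest changes were in Ifi27 (5.13), Ifi27l2a (5.06), Ifi204 (3.92) and Parp12 (2.80). From HE to HE2, 2 of the 59 rose and 1 fell (Ptpn6 1.83, Irgm2 1.46 and Gbp4 -1.63), beside 2.39% and 2.67% of all genes. From HE2 to progenitors 4 rose (Ly6e 2.04, Ptpn6 1.37, Irgm2 1.26 and Ifnb1 1.1), beside 1.78% of all genes.

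Of the interferon genes themselves, 5 were tested and none was called in the step to myeloid progenitors or with Dox. Ifnb1, which encodes interferon beta, was not well above background on any of the 6 HE arrays. It was at 5.44, 5.82 and 5.89 in uninduced HE2, at 6.96 and 6.67 in uninduced progenitors and at 6.28, 6.96 and 6.83 in uninduced myeloid progenitors. From HE to HE2 without Dox it was higher by 0.79 ± 0.22 on the log2 scale (adjusted P = 0.0264), which was not past the threshold. From HE2 to progenitors it rose by 1.1 ± 0.25, and from progenitors to myeloid progenitors it changed by -0.13 ± 0.25. With Dox, Ifnb1 was lower in HE2, at 5.25, 4.92 and 4.95, and only the first of these was well above background. In induced progenitors it was at 6.67 (slide 1) and 5.66 (slide 3), the latter not well above background. In induced myeloid progenitors it was at 6.75, 6.75 and 6.73. None of these changes with Dox passed the threshold.

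With Dox, 5 of the 59 rose and 1 fell in HE, where 4.7% and 2.39% of all genes did. In HE2, 5 rose and 2 fell, beside 5.17% and 2.05% of all genes. In progenitors none rose and 1 fell, beside 3.03% and 0.704%, and in myeloid progenitors 2 rose and none fell, beside 5.13% and 1.18%. Ifi27 was at 7.68, 8.02 and 8.34 in HE without Dox and at 11.40, 12.11 and 12.18 with Dox, a rise of 3.88 ± 0.29 (adjusted P = 7.76e-08), and it rose by 3.42 in HE2. Ifi27l2a rose by 2.89 in HE and 1.93 in HE2, and Trim30a, which restrains innate signalling, by 2.38 and 1.48. Lgals3bp rose by 1.47 in HE, and Ptpn6 fell by 1.38 in HE2. In myeloid progenitors Socs1, a feedback inhibitor of Janus kinases, rose by 1.44. Ifnlr1 encodes a receptor subunit for interferon lambda. It was not well above background on any of the 3 arrays without Dox nor on 1 of the 3 with it. As a bound it was at least 1.98-fold higher with Dox, under the 2-fold limit. The adjusted P of 0.0012 is that of the change in the model, not of this bound.

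Irf1 was lower with Dox at every stage. In HE it was at 10.71, 10.85 and 11.07 without Dox and at 9.23, 9.87 and 9.52 with Dox, a change of -1.33 ± 0.22 (adjusted P = 0.000383). In progenitors it fell by 1.17 ± 0.27 (adjusted P = 0.0149). The progenitor arrays were at 11.92 and 11.93 without Dox and at 11.10 (slide 1) and 10.40 (slide 3) with Dox. The additional uninduced array on slide 3 was at 11.67. In HE2 and in myeloid progenitors the change was -0.91 ± 0.22, under the 2-fold limit. Irf7 and Irf9 were not called with Dox at any stage, with changes between -0.57 and 0.73.

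Markers of other cells moved with Dox as well. Of the 7 endothelial markers none was called with Dox in HE and 3 rose in HE2. Another 3 calls were made for progenitors and 6 for myeloid progenitors. The log2 of the summed intensity of the 7 was higher with Dox in progenitors, 13.98 to 14.03 without and 14.99 to 15.33 with it. In myeloid progenitors this sum was 13.01 to 13.58 without Dox and 15.35 to 15.64 with Dox. Of the 6 macrophage markers Mrc1 rose with Dox at each stage, by 1.69 (HE), 3.46 (HE2), 3.11 (Prog) and 4.01 (myeloidProg), and Cd14 and Csf1r fell in HE2. The other macrophage markers mostly had negative changes, as 5 of the 6 were lower with Dox in HE, in HE2 and in Prog and 4 of the 6 in myeloidProg, with list medians of -0.17, -0.80, -0.34 and -0.32. Mesenchymal markers fell with Dox in HE (3 of 5, while 1 rose), HE2 (4 of 5) and myeloidProg (1 of 5). Megakaryocyte markers fell in HE2 (1 of 4) and myeloidProg (3 of 4), and neutrophil markers in HE2 and Prog (1 of 4 each). Erythroid markers rose in HE (1 of 5), HE2 (2 of 5) and Prog (2 of 5), and mast cell markers in HE (1 of 2), Prog (1 of 2) and myeloidProg (2 of 2). The part of these changes in the response of the members to Dox was not tested.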

How the data were processed

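Single-colour Agilent SurePrint G3 Mouse 8x60K arrays were scanned by the authors with Agilent Feature Extraction (10.7.1.1 per the labels), and the deposited files hold the median spot intensity and the median background intensity. The deposited matrix of normalised log2 values, made by the authors with limma, was an alternative here. From the intensity, normexp background correction (offset 16) and quantile normalisation were run in limma 3.58.1 (R 4.3.3), following the study's methods. The 3671 control spots were left out, and outlier spots set to missing. Of 55681 probes, 26582 were named through RefSeq accessions (GRCm38.p6 table). No column of another series was used (0 left out). Genes at a log2 intensity of 6.5 or more on at least 1 array were tested with moderated statistics over 22 arrays in 8 groups (14 residual degrees of freedom), with thresholds of P 0.001 and 2-fold. Adjusted P values are Benjamini-Hochberg over all 15202 genes.

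The members and gene lists were chosen with earlier results of these data known. All 40 members matched are accounted for. Values per array are given for members past the threshold, or for the 6 with the largest change where more passed; of other pathway genes up to 4 per comparison are named, and always Irf1, Irf7 and Irf9, with Runx1t1 and sorting markers as checks; 1 further gene of this rule is not reported here. The text also names Stat2, Ifnb1 and members at their own counts, chosen after their values were seen. Titles call the arrays biological replicates, but for 1 induced myeloid array (replicate 3) another label says technical replicate. The model was tested on simulated data first. Same-numbered uninduced HE and HE2 arrays deviated together (r of 0.39, 0.80 and 0.61), also lying on the same slides, so the numbers pair them, and with the number as a block 8 members rose from HE to HE2 as without it. The number of arrays limits the precision.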

Additional observations from a re-analysis of the deposited data

Results flagged for a closer look

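The responses to Dox that differed between stages by the test of the difference itself are collected here, as the log2 change at the later stage minus that at the earlier one. From HE to HE2 the difference was -1.50 in Ifitm6, -1.54 in Oas1a, -1.97 in Oas2 and -1.66 in Usp18. From HE2 to progenitors it was -2.01 in Parp14 and -1.66 in Parp9. From progenitors to myeloid progenitors it was 1.97 in Ddx58, 1.22 in Dhx58, 1.98 in Ifit1, 1.78 in Irgm1, 1.71 in Oasl2, 2.15 in Rtp4, 2.04 in Usp18 and 2.20 in Xaf1. From HE to myeloid progenitors it was 2.01 in Ifit1, -1.40 in Ifitm6 and -1.61 in Oas1a. In HE, Ifitm6 was well above background on 1 of 3 arrays in each group, so its 2 differences compare a response with one that could not be measured. The 2 probes of Oas1a changed by 2.46 and 0.46 with Dox in HE, by 0.92 and 0.10 in HE2 and by 0.85 and 0.61 in myeloid progenitors, so both of its differences rest on the brighter probe. No group held more than 3 arrays, so no array was tested as an outlier.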

How the results depend on the processing

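Counts below are of members past the threshold. With Dox in HE none fell (0) when only the groups compared were fitted. In HE2, 2 rose after 75th percentile scaling and 0 with only the groups compared. In progenitors the number that fell was 5 at an adjusted P of 0.05, 1 with slide or with scan day as a block and 0 with only the groups compared. In myeloid progenitors 2 rose after 75th percentile scaling and with only the groups compared, and 1 fell with an offset of 50 and in the deposited log2 values. From HE to HE2, 5 rose with an offset of 50 and in the deposited values. From progenitors to myeloid progenitors 0 fell with slide or scan day as a block. HE and HE2 differed in their response in 2 members with an offset of 50, in the deposited values and at an adjusted P of 0.05. Between HE2 and progenitors it differed in 0 members at that adjusted P, with slide or scan day as a block and with only the groups compared, and in 1 with the additional progenitor array and slide as a block. Between progenitors and myeloid progenitors it differed in 4 after 75th percentile scaling, 0 with slide or scan day as a block and 5 with only the groups compared. Between HE and myeloid progenitors it differed in 1 with an offset of 50 and in the deposited values, and in 5 at an adjusted P of 0.05. The causes were not tested.

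Leaving out 1 array at a time, between 3 and 5 members rose and 1 and 2 fell with Dox in HE, 1 and 5 rose and 3 and 4 fell in HE2, 1 and 7 fell in progenitors and 1 and 6 rose in myeloid progenitors. Between 9 and 14 rose from HE2 to progenitors and 24 and 31 from progenitors to myeloid progenitors. Responses differed in 2 to 4 members between HE and HE2, 0 to 4 between HE2 and progenitors, 0 to 11 between progenitors and myeloid progenitors and 2 to 4 between HE and myeloid progenitors. Between arrays without and with Dox of a stage the replicate numbers did not pair the samples, as the deviations of same-numbered arrays correlated between -0.54 and 0.70. With the number as a replicate block 89 of the 92 calls named for single genes were kept, and those of Ddx58 from HE2 to progenitors (1.19), Usp18 between HE and HE2 (-1.66) and Irgm1 between progenitors and myeloid progenitors (1.78) were lost, while 10 members differed between progenitors and myeloid progenitors. Over the other settings 1157 of 1288 values for single genes kept their call, 131 lost it and 0 reversed, and leaving out 1 array 448 of 583 kept it, 135 lost it and 0 reversed.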
